A study of Saccharomyces cerevisiae with 12 samples.

Results

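The transcripts described here are those whose mRNA abundance, relative to the typical transcript, was lower late in Congo Red treatment while their synthesis rate stayed near that of the typical transcript. They are 74 array spots out of 3574 kept spots (2.07%), and the array holds 6144 spots in all. The measure D is the mean over 120, 180 and 240 min of the log2 ratio of the deposited mRNA abundance to its value at 0 min, less the median of all kept spots. The measure S is the same quantity from the deposited synthesis rates. A kept spot had all 12 values in the authors' table, which 4468 spots had, and a mean mRNA abundance above the 20th percentile. A member was among the 300 lowest D and had S between -0.2 and 0.2. D and S therefore chose the members, so both are given as descriptions and neither is tested.

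The study followed budding yeast (Saccharomyces cerevisiae, wild-type strain BY4741) in rich YEPD medium at 24 °C after Congo Red was added to 30 µg/ml. The dye attaches to chitin and interferes with wall assembly. Treated cells were collected after 30, 60, 120, 180 and 240 min and starting cells at 0 min, with 3 replicate arrays per time. mRNA was read from labelled cDNA, and nascent transcription from genomic run-on, where polymerases already engaged on a gene add a labelled nucleotide in permeabilised cells. That gave 36 arrays in 12 groups. No culture was followed without the dye, so time in culture and time in Congo Red cannot be told apart. The labels do not say whether replicates came from separate cultures, so p-values measure only the spread between arrays of a group, and that may be technical. The deposited table gives 1 value per spot and time, with the replicates combined by the authors.

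The amount of an mRNA in a cell reflects a balance of synthesis by RNA polymerase II and degradation. In yeast most mRNAs are degraded after their poly(A) tail is shortened and their cap removed, by a 5′ to 3′ exonuclease, with the exosome acting from the other end. Cell wall stress is sensed at the plasma membrane and signalled through the cell wall integrity MAP kinase cascade, which changes the transcription of wall genes. An mRNA whose level drops while its synthesis holds is a candidate for faster decay, but decay itself was not measured on these arrays.

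The spots carry no gene names in the files, and none of their identifiers matched a yeast gene. Spots are therefore named by the block row (R), the block column (C) and the printing position inside the block, and no function, gene list or sequence is given for them. Whether 2 spots hold the same gene cannot be read from the names. The members were spread over 70 of the 384 blocks, and no block held more than 2.

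In the authors' table the median D of the 74 members was -0.81, with a range of -1.57 to -0.63, and 20 members lay below -1. Their median S was -0.06, with a range of -0.19 to 0.17, and S was below 0 in 49 of them. Among the 300 lowest D, 215 other spots had S below -0.2, so that mRNA and synthesis were both relatively low, and 11 had S above 0.2. The 215 spots had a median D of -0.84, close to that of the members, and a median S of -0.55. The members thus form the smaller share of the 300 spots with the lowest late mRNA.

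**Figure D1:**
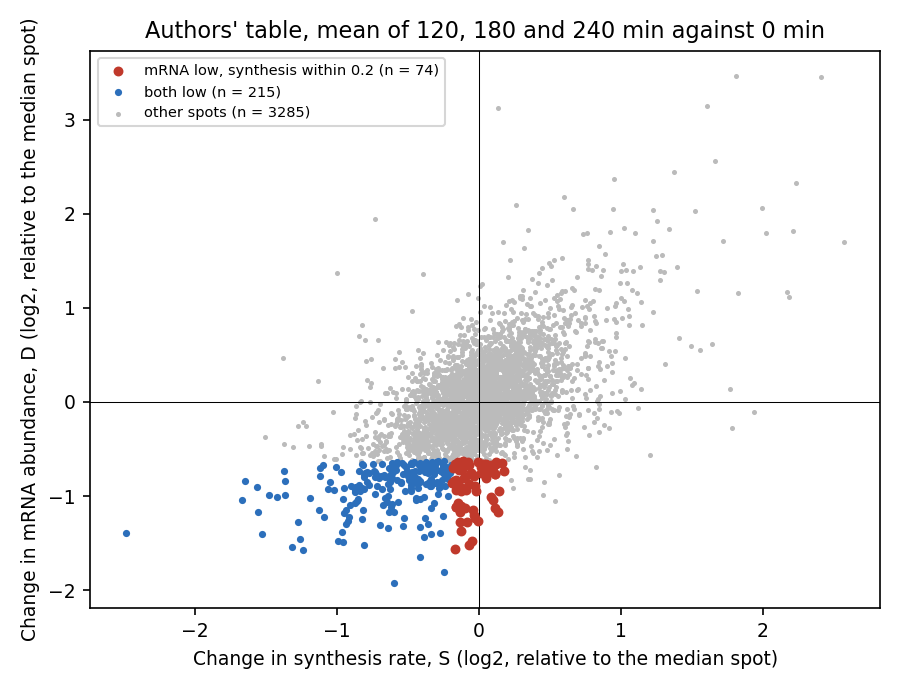
Each point is 1 of the 3574 kept spots, with S, the late change in synthesis rate, on the x axis and D, the late change in mRNA abundance, on the y axis, both log2 relative to the median spot. The 74 members (red) lie between S of -0.2 and 0.2 at the bottom of the plot, and the 215 spots with both values low (blue) lie to their left.

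The spots nearest to the limits show how little separates a member from its neighbours. Spot R5 - C19 : 9 was a member with S of -0.193, and R2 - C4 : 11 was not, with S of -0.201. At the upper limit R15 - C13 : 16 was a member with S of 0.17, and R16 - C19 : 5 was not, with S of 0.22. Spot R14 - C24 : 3 was a member with D of -0.632, while R4 - C13 : 1, with D of -0.625, was not. At the limit on abundance R13 - C11 : 2 was a member with a mean mRNA abundance of 0.585 table units, and R11 - C11 : 2 fell short with 0.449, against a limit of 0.473. In all, 14 spots under the abundance limit met the conditions on D and S.

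The synthesis of the members was level only relative to the typical spot. Without centring, the median ratio of the deposited synthesis rate to its 0 min value was 1.02, 0.930, 0.757, 0.591 and 0.549 in the members at 30, 60, 120, 180 and 240 min. In the other kept spots it was 0.990, 0.941, 0.801, 0.592 and 0.568 at the same times. All 74 members had a lower deposited synthesis rate at 120, 180 and 240 min than at 0 min. The authors divided these rates by a cell volume factor, which was 1.17, 1.44 and 1.65 at the last 3 times. Multiplying it back gave medians of 0.885, 0.851 and 0.907 at 120, 180 and 240 min in the members, with 62, 67 and 53 of the 74 still below 1. The same step gave 0.937, 0.853 and 0.937 in the other kept spots. The deposited mRNA abundance of the members stood at 0.793, 0.691, 0.429, 0.377 and 0.342 of its 0 min value over the 5 times, and that of the other spots at 1.04, 1.02, 0.750, 0.663 and 0.635. Multiplied by the same factor, the mRNA medians at 120, 180 and 240 min were 0.502, 0.543 and 0.564 in the members. In the other spots they were 0.877, 0.955 and 1.05. The division is described here only for the synthesis rates, so these products are not read as mRNA ratios before a correction. The words "without a synthesis fall" therefore hold for the members against other spots and not for the deposited rates themselves.

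The difference in mRNA was already present early in the table. Relative to the median spot, the members' median log2 mRNA change from 0 min was -0.38, -0.56, -0.79, -0.80 and -0.89 over the 5 times in order. Their median synthesis change was 0.04, -0.02, -0.08, -0.00 and -0.05. In the 215 spots with both values low the median mRNA change was similar, at -0.41 at 30 min and -0.61 at 60 min. Of the 74 members, 70 were below their 0 min value at 30 min and 71 at 60 min, and 68 were below it at all 5 later times. A median of 45.1% of D was present at 30 min and 59.9% at 60 min. These early values share the 0 min measurement with D, so they are not separate evidence for it. On the arrays the members' early mRNA change was smaller, at -0.13 ± 0.10 at 30 min and -0.25 ± 0.17 at 60 min (SD over the medians of 3 replicate numbers). The lowest mRNA value came at 30 and 60 min in 2 members each, at 120 min in 17, at 180 min in 19 and at 240 min in 34.

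Individual late synthesis values moved more than their mean. In 28 members synthesis stayed within 0.2 of the median spot at each of the 3 late times, and in 10 it lay beyond 0.4 at some late time. The ratio of synthesis to mRNA, relative to its 0 min value and to the median spot, had a median of 1.33, 1.47, 1.73, 1.79 and 1.78 in the members over the 5 times in order. In the 215 spots with both values low it was 1.23, 1.16, 1.10, 1.33 and 1.27. At the late times this ratio follows from S and D, which set the 2 groups apart, so nothing is read from the difference.

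**Figure D2:**
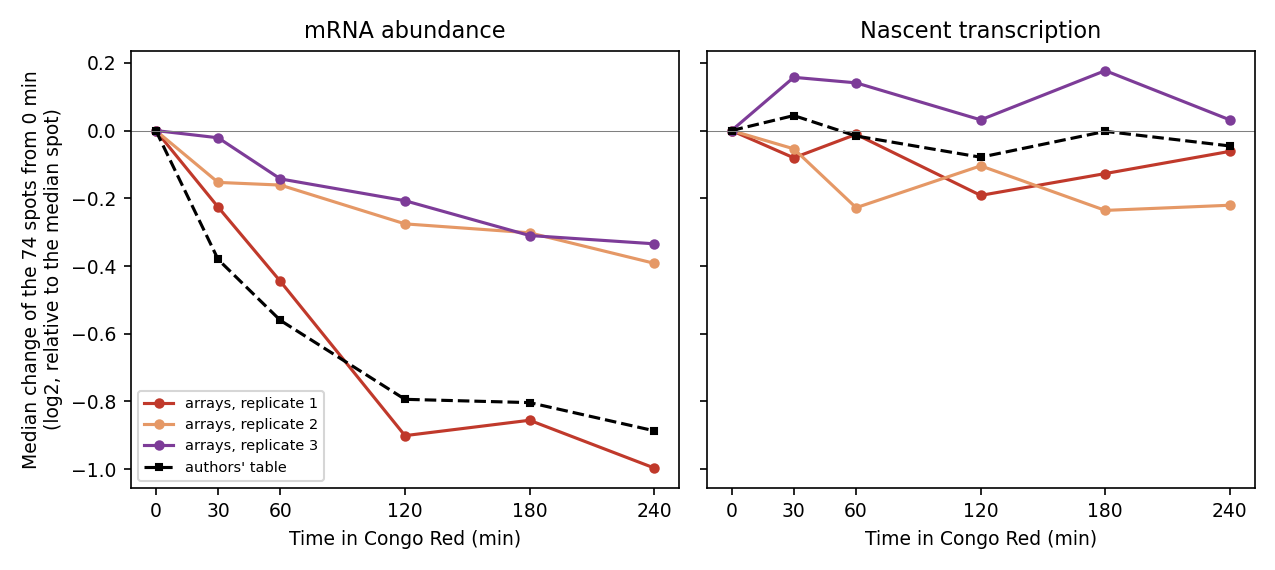
Median log2 change from 0 min of the 74 members, relative to the median spot, by minutes in Congo Red, for mRNA (left) and nascent transcription (right). The dashed line is the deposited table and each solid line the quantile-normalised arrays of 1 replicate number. The members' mRNA in the table goes down to -0.89 at 240 min while their synthesis stays within 0.08 of 0, and the 3 replicate numbers differ in how low the mRNA lies.

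The arrays behind the table show how much of this each replicate carried. Arrays were numbered 1 to 3 in the deposit, and D and S were computed within each number from quantile-normalised intensities. All 74 members were above 0 on all 36 arrays. Their median D was -0.96 in replicate number 1, -0.25 in number 2 and -0.27 in number 3, a mean of -0.49 ± 0.40 (SD, n = 3). Number 1 lay far below the other numbers, which were close to each other. The lowest of the 3 values came from number 1 in 57 members, from number 2 in 11 and from number 3 in 6. The members' median S was -0.13, -0.19 and 0.04 in numbers 1, 2 and 3, a mean of -0.09 ± 0.12 (SD, n = 3).

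The 215 spots with both values low were less uneven, with a median D of -0.99, -0.91 and -0.58 in numbers 1, 2 and 3. Their median S was -0.60, -0.79 and -0.38. After median scaling of the arrays the members' D was -1.06, -0.38 and -0.46, and with each printing position centred it was -0.84, -0.27 and -0.25. Number 1 was thus the lowest under each of these scalings.

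D was below 0 in all 3 numbers in 51 of the 74 members, where 26.1% of all kept spots met that condition. Since the table that chose the members was made from the same arrays, nothing is read from that share. S lay between -0.2 and 0.2 in all 3 numbers in 8 members (10.8%), near the 9.19% of all kept spots. The median SD over the 3 numbers was 0.422 for D and 0.323 for S, which is wider than the limit of 0.2 that the rule set on S. Taken singly, numbers 1, 2 and 3 had 36, 24 and 34 of the 74 members within these limits of S, beside 1492 of 3568, 1161 of 3574 and 1541 of 3574 kept spots measured.

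**Figure D3:**
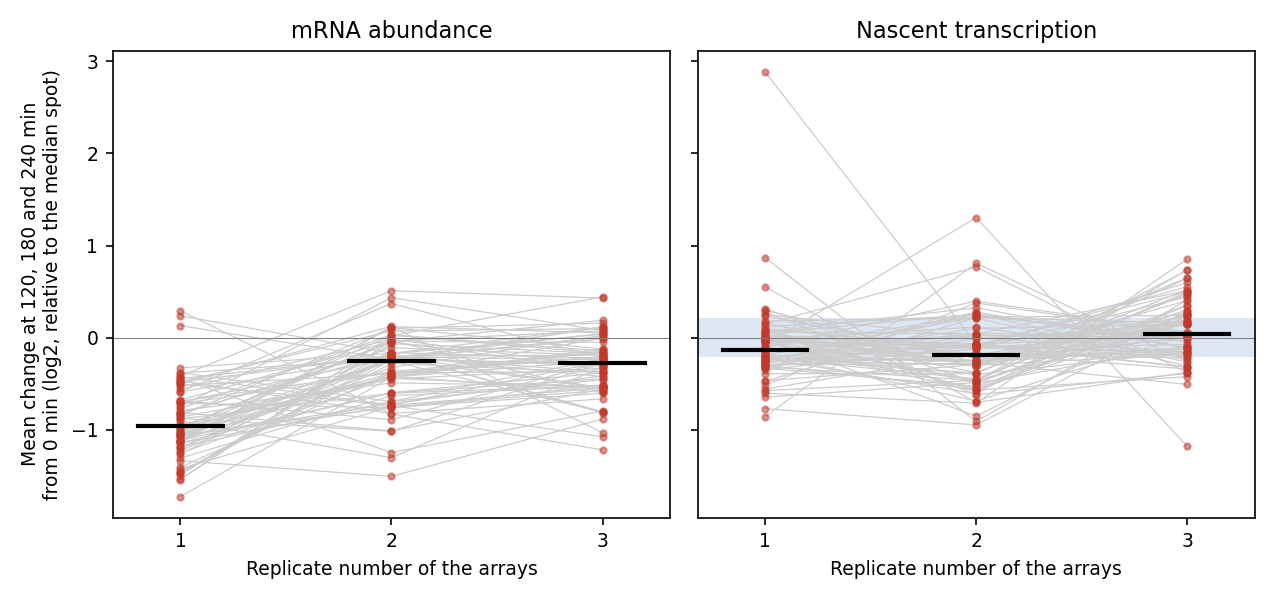
D and S of the 74 members in each replicate number, on the log2 scale relative to the median spot, with 1 point per member, grey lines joining a member's values and black bars at the medians. The shaded band marks S between -0.2 and 0.2. D in number 1 has a median of -0.96 and lies below that in numbers 2 and 3, while S spreads beyond -0.2 and 0.2 in all 3 numbers.

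The table and the arrays also differed in the members at 0 min. The table's log2 mRNA value less the mean of the arrays, each relative to its median spot, had a median of 0.29 in the members at 0 min and was above 0 in 66 of 74. At 30, 60, 120, 180 and 240 min it was 0.08, 0.06, 0.00, -0.01 and -0.06. In the 215 spots with both values low it was 0.05 at 0 min. For synthesis the members' medians stayed between -0.03 and 0.03. Across the 3574 kept spots D from the table and from the arrays correlated with r of 0.919, and S with r of 0.938, as a description over spots that share arrays. Part of the members' D in the table thus lies in a higher 0 min value than the arrays give. D is taken against the table's 0 min value, so a high value there makes D lower. The 215 spots with the gap of 0.05 were also chosen for low D. Whether the members' gap comes from that choice, or from how the authors combined the replicates, was not tested.

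The member with the lowest D, R7 - C9 : 12, had a deposited mRNA abundance of 49.1, 28.5, 24.3, 16.4, 8.48 and 10.2 at 0, 30, 60, 120, 180 and 240 min. Its deposited synthesis rate was 0.309, 0.359, 0.322, 0.231, 0.162 and 0.151, and its D was -1.57. On the arrays its normalised log2 mRNA intensity was 8.12, 10.14 and 9.77 at 240 min and 9.97, 10.56 and 10.33 at 0 min, for numbers 1, 2 and 3. Number 1 was lower by far more than the other numbers, though each number was lower at 240 min than at 0 min. The value of number 2 at 240 min was above that of number 1 at 0 min, so the groups overlapped when the numbers are not paired. Its D by number was -1.46, -0.28 and -0.38. Its S by number was -0.57, -0.46 and 0.50, each outside the limits of the rule.

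Spot R12 - C18 : 11 had low mRNA in every replicate number. Its deposited mRNA abundance was 14.6, 10.9, 8.67, 4.76, 3.87 and 3.66 over the 6 times, with D of -1.28 and S of -0.13. On the arrays its log2 mRNA intensity was 6.32, 7.75 and 8.23 at 240 min and 7.80, 9.54 and 8.94 at 0 min. Its 240 min value lay below the 0 min value of the same number in all 3, although the groups as a whole overlapped. Its D by number was -1.33, -1.51 and -0.88. Its S by number was 0.55, -0.70 and -0.38, each outside the limits of the rule. Its synthesis was weak, at percentile 5.15 of the kept spots at 30 and 60 min.

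The most abundant member was R11 - C20 : 7, with a deposited mRNA abundance of 138, 109, 109, 51.0, 44.9 and 37.7 over the 6 times. Its log2 mRNA intensity was 10.39, 11.68 and 11.42 at 240 min and 11.60, 12.51 and 12.10 at 0 min, so that only number 2 at 240 min passed the lowest 0 min array. Its D by number was -1.06, -0.76 and -0.60, and its S by number was -0.30, -0.56 and 0.18. Its log2 run-on intensity was 8.72, 8.36 and 8.08 at 240 min and 8.92, 8.90 and 8.25 at 0 min, and these ranges overlapped.

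Only R9 - C20 : 12 and R15 - C13 : 16 had all 9 mRNA arrays from 120 to 240 min below all 3 arrays at 0 min. These 2 of 74 members are 2.70%, and 3% of all kept spots met that condition. Of the spots with both values low, 60 of 214 measured ones (28.0%) did. That condition compares arrays of different replicate numbers, so it does not use their pairing. In R9 - C20 : 12 the log2 mRNA intensity was 5.91, 5.74 and 6.02 at 240 min and 6.36, 7.09 and 6.69 at 0 min. Its run-on intensity was 7.31, 7.41 and 7.39 at 240 min and 7.48, 7.68 and 7.71 at 0 min, so nascent signal too was lower on each 240 min array. In R15 - C13 : 16 the log2 mRNA intensity was 5.75, 6.59 and 6.69 at 240 min and 6.96, 7.58 and 7.0015 at 0 min. Its run-on intensity was 4.67, 5.63 and 5.50 at 240 min and 5.34, 6.53 and 5.15 at 0 min, which overlapped. Its S by number was -0.77, -0.95 and 0.24, against 0.17 in the table, so numbers 1 and 2 lay outside the limits of the rule.

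Other members went the other way on single replicates. Spot R12 - C3 : 11 had a deposited mRNA abundance of 69.2, 39.3, 35.0, 25.1, 23.3 and 24.3 over the 6 times. On the arrays its log2 mRNA intensity was 10.07, 9.75 and 11.05 at 240 min and 10.11, 9.21 and 10.56 at 0 min. Numbers 2 and 3 were higher at 240 min than at 0 min, and its D by number was -0.42, 0.51 and 0.43. The table and the arrays thus disagreed in direction for this spot.

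The contrasts of 120 to 240 min against 0 min, for mRNA and nascent transcription, are those the rule used. Their calls are given without reading them. With limma on the quantile-normalised arrays, 1 member (R9 - C20 : 12, log2 change of -0.84, adjusted p = 0.0402) was called lower at an adjusted p under 0.05, beside 0.901% of all spots tested. With the replicate number as a block, 30 members were called lower, beside 9.07% of all spots tested. At 240 min alone 0 members were called lower without the block (10 at an unadjusted p under 0.05), beside 0.287%, and 23 with it, beside 5.74%. For nascent transcription from 120 to 240 min against 0 min, limma called 0 members lower (0 at an unadjusted p under 0.05), beside 1.11% of all spots tested, and 0 with the block (1 unadjusted), beside 2.64%. The limits on S leave little room for such nascent calls in the members, so nothing is read from these counts. The median standard error of a member's late nascent change was 0.21 without the block, where 42 of the 74 members exceeded the limit of 0.2. With the block it was 0.187. Errors this close to the limit mean that the fit cannot place single members inside the limits.

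The steps from 30 to 60 min and from 120 to 240 min do not use the 0 min arrays. The values at 120 and 240 min did enter D and S through the late mean. The step between them is therefore not free of the rule and is given as a description. For mRNA at 60 min against 30 min, the members' median log2 change on the arrays was -0.22, 0.03 and -0.01 in numbers 1, 2 and 3, a mean of -0.07 ± 0.14 (SD, n = 3). No member was called lower by limma, beside 0% of all spots tested, 0 members had an unadjusted p under 0.05, and the block called 0. In the authors' values, 52 of the 74 members were lower at 60 min than at 30 min, with a median of -0.13, and 49.6% of the other kept spots were. For mRNA at 240 min against 120 min, the arrays gave medians of -0.07, -0.12 and -0.08, a mean of -0.09 ± 0.03 (SD, n = 3). There too limma called 0 members lower, beside 0%, with 0 members at an unadjusted p under 0.05. The block also called 0. With it 5 members were lower and 1 higher at an unadjusted p under 0.05, beside 2.66% and 2.58% of all spots tested. The median standard error of a member's mRNA step was 0.434, or 0.226 with the block, so steps of this size were not detectable for single members.

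For nascent transcription at 60 min against 30 min, the members' medians were 0.10, -0.17 and -0.06 in numbers 1, 2 and 3. limma called 0 members higher or lower, beside 0% of all spots tested in each direction, and 1 member had an unadjusted p under 0.05. At 240 min against 120 min it called 0 members higher, beside 0.0196%, and 0 lower, beside 0%, with 0 members at an unadjusted p under 0.05. The test of whether the mRNA step at 60 min against 30 min differed from the nascent step called 0 members in either direction, beside 0%, again with 0 at an unadjusted p under 0.05.

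Taking 30 and 60 min as the starting level in place of 0 min leaves out the 0 min arrays but keeps the late ones that the rule used. On that basis the members' late mRNA had a median log2 change of -0.41 in the table and lay below 0 in 70 of 74. On the arrays it was -0.48, -0.20 and -0.17 by number, a mean of -0.28 ± 0.17 (SD, n = 3). limma called 0 members lower in mRNA (8 at an unadjusted p under 0.05), beside 0.0205% of all spots tested, and 9 with the replicate number as a block, beside 1.8%. These calls rest on late arrays that chose the members, so nothing is read from them. The late nascent change was -0.04 in the table and -0.10 ± 0.06 on the arrays (SD, n = 3). limma called 0 members lower in nascent transcription (0 at an unadjusted p under 0.05), beside 0.45%, and 0 with the block (2 unadjusted), beside 0.958%. The late nascent arrays also chose the members, so nothing is read from these calls either. Of the 74 members, 41 were still among the 300 lowest, 52 had S within the limits, and 25 met the whole rule, out of 106 spots that did so.

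Applying the rule to 2 replicate numbers and reading the chosen spots in the number left out gives values the choice did not use. Without number 1 the rule chose 40 spots, with a median D of -0.63, and in number 1 their median D was -0.44 and their median S -0.28. Without number 2 it chose 94 spots with a median D of -0.69, and in number 2 they had a D of -0.42 and an S of -0.38. Without number 3 it chose 48 spots with a median D of -0.79, and in number 3 they had a D of -0.25 and an S of -0.01. Only 7 of the 40, 28 of the 94 and 20 of the 48 chosen spots were members. D was below 0 in the number left out in 34, 87 and 32 of them, against 50.1%, 50.4% and 51.1% of all spots. Spots with both values low, chosen the same way, had a median D there of -0.63, -0.90 and -0.41. Low mRNA of the chosen spots, most of them not members, thus recurred in the number left out at a smaller size. In numbers 1 and 2 their nascent signal was low as well.

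The chosen spots were among the 300 lowest D of the number left out in 9 of 40 (22.5%), 22 of 94 (23.4%) and 9 of 48 cases (18.8%), against 8.42%, 8.39% and 8.39% of all spots. Their S lay within 0.2 there in 32.5%, 30.9% and 52.1% of cases, against 41.9%, 32.5% and 43.1% of all spots. The whole rule was met in the number left out by 3 spots each time, which is 7.5%, 3.19% and 6.25% of those chosen, against 2.38%, 0.699% and 2.63% of all spots. Of the 74 members, 1 was chosen from all 3 pairs of numbers, 39 from at least 1 pair, and 35 from none.

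Most members had a high mRNA level and a high ratio of mRNA to synthesis, which are not terms of D or S. Levels were taken as the mean of 30 and 60 min in the table, times that entered the rule only through the limit on mean abundance. The median member had an mRNA level at percentile 86.5 of the kept spots, against 59.1 for the 215 spots with both values low and 49.3 for the other spots. The synthesis level of the median member was at percentile 54.4, against 39.2 and 49.9. The ratio of mRNA to synthesis, which at a steady state is larger for a longer-lived mRNA, was at percentile 89.5, against 66.7 and 49.2. The members' synthesis levels were widely spread, with quartiles at percentiles 31.5 and 83.0, while those of the ratio were at 79.2 and 96.6. The 11 spots of low D with S above 0.2 had a median level at percentile 87.5 and a median ratio at 91.6, so a high level and ratio were not particular to the members.

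The top 20% of the ratio held 53 members (71.6%) and 64 of the 215 spots with both values low (29.8%). The top 10% held 36 members (48.6%) and the next 10% held 17 (23.0%). In mRNA level, 31 members (41.9%) lay in the top 10% and 46 in the top 20%. A low level or ratio was uncommon but did occur, with 11 members below the median level and 10 below the median ratio. Spot R12 - C17 : 10, with the highest ratio at 0 min, had a deposited mRNA abundance of 13.9 at 240 min, against 52.1 at 0 min, and a synthesis rate of 0.0521 against 0.0824. On the arrays its D by number was only -0.44, -0.20 and -0.19. Spot R7 - C18 : 5, with the lowest ratio, had an abundance of 0.476 at 240 min, against 1.45 at 0 min, and a synthesis rate of 0.161 against 0.264. On the arrays its D by number was 0.29, -0.83 and -1.22, so number 1 lay above 0.

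The typical spot of high level or ratio also had a D below 0. The median D was -0.26 over all kept spots in the top 10% of the ratio, and -0.18 over those in the top 10% of the mRNA level. Among the 74 members D correlated with the level at r of -0.39 and with the ratio at r of -0.41, as a description over spots that share the same arrays. The 46 members in the top 20% of level had a median D of -0.93, and the other 28 had -0.72. By replicate number the 46 had -1.05, -0.23 and -0.22 and the 28 had -0.78, -0.40 and -0.35. The abundant members thus leaned more on number 1 than the other members did.

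**Figure D4:**
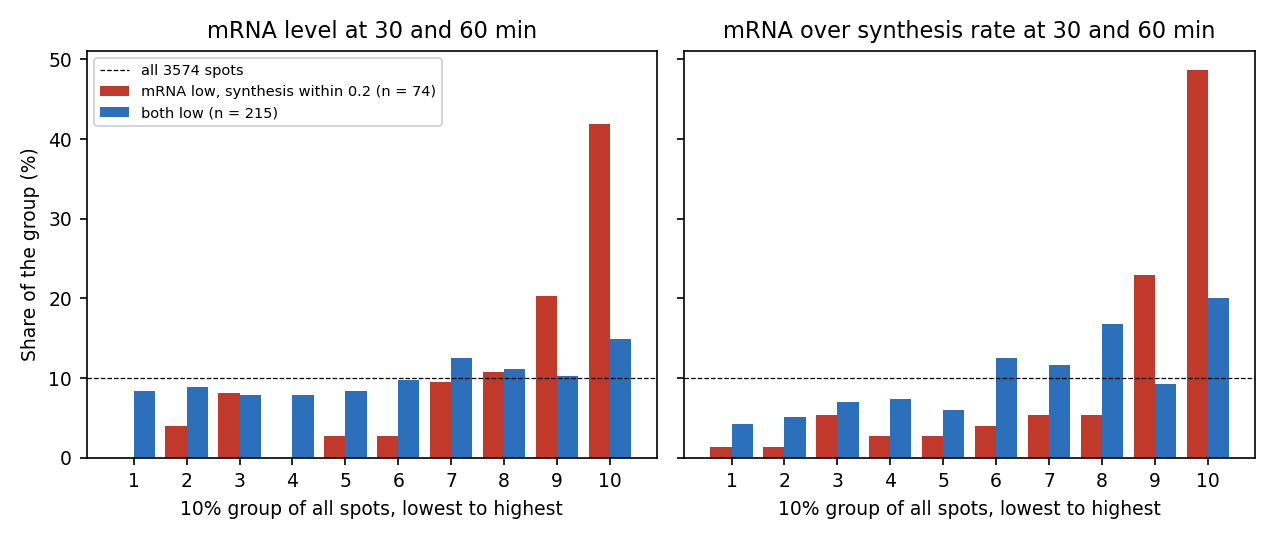
Share of the members, and of the 215 spots with both values low, in each 10% group of the mRNA level and of the mRNA to synthesis ratio at 30 and 60 min, formed over all 3574 kept spots (dashed line, 10%). The top group holds 41.9% of the members by level and 48.6% by ratio, against 14.9% and 20.0% of the spots with both values low.

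Because the members were abundant, they made up more of the signal than of the spots. They held 7.89% of the summed mRNA abundance of the table's kept spots at 0 min, and 6.58%, 5.76%, 4.94%, 4.20% and 4.36% over the later times in order. Their share of the summed synthesis rate was 2.03% at 240 min and 2.21% at 0 min.

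Members were unevenly spread over the 16 printing positions. Position 6 held 11 members among its 82 kept spots (13.4%), against 2.07% over the array, and position 12 held 10 among 291 (3.44%). Positions 8 and 15 held 0 among 292 and 149 kept spots. All 82 kept spots of position 6 had a median D of -0.42 and a median S of -0.09, and 21 of them were among the 300 lowest D. By replicate number their median D was -0.56, -0.30 and -0.29. Position 3 had a like median D of -0.43 but a median S of -0.46, and it held 5 members among 220 kept spots and 71 of the 215 spots with both values low. When the table was centred within each printing position, 95 spots were chosen, of which 57 were members, and position 6 kept 1. The 63 members at other positions had a median D of -0.83 and a median ratio percentile of 87.7, with 44 in the top 20% of the ratio. What the printing positions share was not tested.

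**Figure D5:**
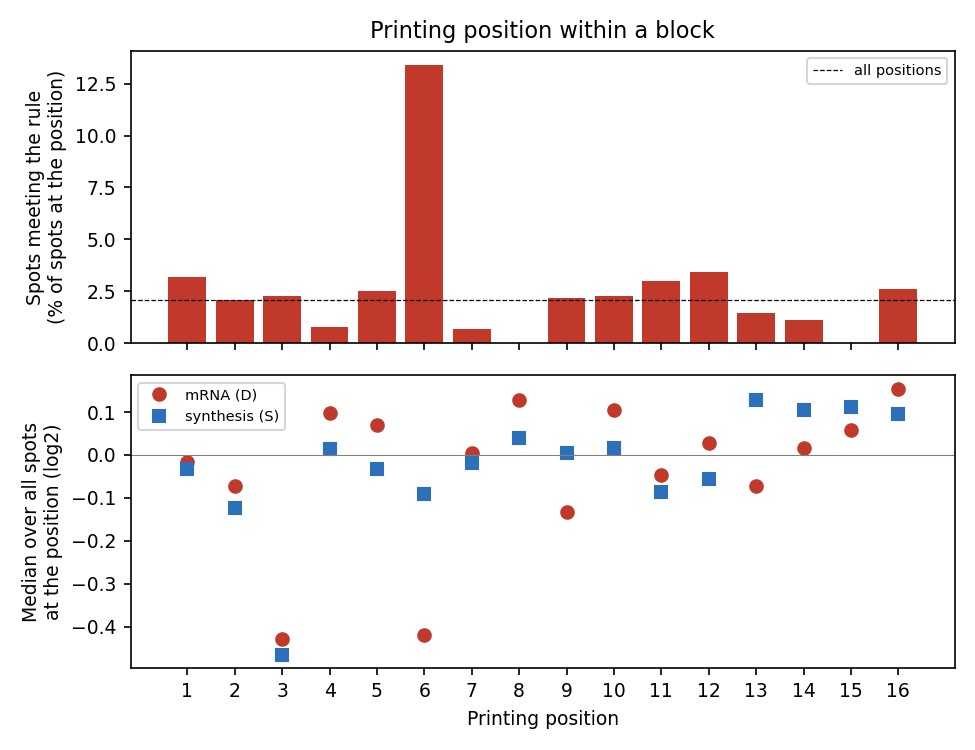
Members as a percentage of the kept spots, and the median D and S of all kept spots, for each of the 16 printing positions of the array blocks. Position 6 has the highest share, 13.4%, and a median D of -0.42, and positions 8 and 15 hold no member.

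On the whole array, summed intensities ran from 387129 to 1660990 in the mRNA arrays and from 512224 to 1880500 in the run-on arrays. Between 15.9% and 18.2% of spots were at 0 on an mRNA array, and between 14.9% and 16.1% on a run-on array. Replicates of a time correlated with r between 0.798 and 0.918 for mRNA and between 0.896 and 0.965 for nascent transcription. With 3 arrays per group, the number of arrays limits the precision of every value above.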

How the data were processed

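Per the labels, mRNA was read with 33P-dCTP cDNA and nascent transcription with 33P-UTP run-on. The deposited array files hold 1 intensity per spot, and no source used here names the scanner, image software or background treatment. The authors' table holds a signal per spot and time, namely mRNA abundance and volume-normalised synthesis rate, with the replicates combined by steps that no source used here describes.

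D and S were computed from the table with Python 3.11.15, with no pseudocount. Array intensities were treated as missing at 0, log2-transformed and quantile-normalised within each assay with limma 3.58.1 in R 4.3.3. limma was fitted across all spots with at least 2 of 3 replicates above 0 in every group, with Benjamini-Hochberg adjustment and a threshold of 0.05, and was first tested on simulated data. Medians by replicate number compare arrays of the same number.

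The replicate number comes from the numbering of the deposited array files. All 45 same-numbered pairs of mRNA arrays deviated together (r between 0.615 and 0.846), so the numbers pair the mRNA arrays, while 13 of 45 nascent pairs were at or below 0.1. The fit with the number as a block is an alternative.

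The named spots follow a rule: the 8 lowest D, the 6 highest mean abundances, the 3 highest and 3 lowest ratios of mRNA to synthesis at 0 min, up to 6 with arrays that do not overlap, the 3 highest D on the arrays and the spots beside each threshold. The text gives those of them that show the range, picked after their values were seen. Gene lists were planned but not run, since the spots carry no gene names. The members and lists were chosen with earlier results of these data known.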

Additional observations from a re-analysis of the deposited data

How the results depend on the processing

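The number of members depended on the limits of the rule. Instead of 74, the rule gave 47 spots with the 200 lowest D and 37 with S within 0.1. From arrays with 1 replicate number left out it gave 40 to 94 spots: 40 without replicate 1 (7 shared with the members), 94 without replicate 2 (28 shared) and 48 without replicate 3 (20 shared). From all quantile-normalised arrays it gave 55 spots, of which 25 were members. Settings added after seeing the data gave 79 spots (41 shared) and 76 (26 shared) from median-scaled and position-centred arrays, and 95 (57 shared) from the table centred per printing position.

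The members' median mRNA change at 30 and 60 min against 0 min was -0.20 on the arrays and -0.475 in the authors' table. The cause was not tested. Late mRNA against 0 min had a median of -0.50 on the arrays, -0.30 without replicate 1 and -0.81 in the table. In the 5 tests of 60 against 30 min and 240 against 120 min, all 66 settings, the replicate block included, called 0 members, with at most 6 at an unadjusted p under 0.05. For late mRNA the replicate block called 30 members lower against 0 min, where 1 was called without it, and 9 against 30 and 60 min, where 0 were called without it. Of 174 mRNA values of named spots that were recomputed, 162 stayed below 0.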
